A study of Homo sapiens with 16 samples.

Results

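Autosomal regions with an H3K27ac peak in A2780cis cells, in A2780 cells depleted of MBD3, or in both, were compared. The MBD3 side was made of the regions held by both hairpins: peaks of shMBD3.26 and shMBD3.232 overlapping by 1 bp or more were joined, and a joined region was kept where it held a peak of each. Merging these regions with the A2780cis peaks by the same overlap gave 21608 regions, out of 58336 merged autosomal regions over all 8 peak lists of the series. A region with both sides was called shared, one with A2780cis peaks alone A2780cis-only, and one with hairpin regions alone hairpins-only. These classes depend on nothing but the presence of a listed peak.

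H3K27ac, acetylation of lysine 27 of histone H3, marks active enhancers and promoters, and broad stretches of it lie over clusters of enhancers. MBD3 is a core subunit of the NuRD complex, which joins nucleosome remodeling to histone deacetylation, and it holds the parts of the complex together. Cisplatin (cPt), a drug that binds and crosslinks DNA, is a mainstay of treatment in epithelial ovarian cancer, and resistance to it arises under long exposure. The comparison asks how far the acetylation of resistant cells and that of sensitive cells without MBD3 fall at the same places.

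The study used ChIP-seq for H3K27ac in 2 pairs of sensitive and resistant lines, A2780 with A2780cis and CAOV4 with CAOV4cis, and in shRNA-carrying A2780 cells. H3K9ac was profiled in the A2780 pair. A2780 is a cPt-sensitive line from an ovarian endometrioid adenocarcinoma, and its label gives no treatment. A2780cis is the resistant derivative, labelled as cisplatin treated and kept in medium with 1 µM cPt according to the methods. The 2 hairpin libraries are from A2780 cells with shMBD3.26 or shMBD3.232, labelled with 1 week of MBD3 knockdown. The hairpins were expressed from the inducible LT3GEN vector in Tet-on competent cells, after 7 days of selection and 7 days of induction, and GFP-positive cells were sorted. CAOV4 is a second ovarian cancer line, of the high-grade serous subtype, with its own resistant derivative CAOV4cis. According to the methods, CAOV4cis was derived under rising cPt doses and also kept in medium with 1 µM cPt. Mononucleosomes from MNase digestion were supplemented with 5% of *D. melanogaster* mononucleosomes in all of these libraries.

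The conditions differ in more than resistance and MBD3. The hairpin cells carry a vector and were selected and sorted, A2780cis cells grew with the drug, and untransduced A2780 cells are not a control matched for transduction. According to the methods, doxycycline induced the knockdown, and the number of cells taken for ChIP was not the same for hairpin and other cells. Cells with a control shRNA were not analysed here. There was 1 library per condition, so no difference has a replicate check and no p-value was computed. The 95% Wilson intervals given with shares cover counting error only.

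Both hairpins target *MBD3*, and their 22-nt guides as the study lists them are shown because the 2 sequences define the MBD3 side of the comparison.
shMBD3.26: aacaaggtcaagagcgacccgc
shMBD3.232: ttgctcatcagcatcttgcccg
Their GC contents were 59.1% and 54.5%. The 2 hairpins are separate reagents with separate libraries and peak lists. Both libraries are from A2780 cells, and untransduced A2780 also had a peak at most regions held by both, as given below.

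The autosomal part of the A2780cis list held 20245 peaks over 91.5 Mb, that of shMBD3.26 held 23270 peaks over 76.5 Mb, and that of shMBD3.232 held 18936 peaks over 78.9 Mb. Untransduced A2780 had 27932 peaks over 96.7 Mb. Median peak widths were 2800 bp in A2780cis, 2000 bp in shMBD3.26, 2600 bp in shMBD3.232 and 2200 bp in A2780. Positions are GRCh37 (hg19), the build given in the submitters' processing notes, since the lists name none, and genes at a region are not named because no annotation of that build was used. The lists give positions and no signal, so that the reads behind a peak, and with them its precision, are unknown. All 8 lists had peaks on chromosomes 1 to 19 and on no other autosome. Their last peak on chromosome 1 ended between 197.172 and 197.193 Mb, before the human chromosome does, and the last ends were also short on chromosomes 2 to 12. Stretches beyond these ends and chromosomes 20 to 22 are thus outside every count below.

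The merged hairpin lists made 26110 regions, of which 13960 held a peak of both hairpins (53.5%, 52.9 to 54.1). These had a median width of 4200 bp and spanned 82.2 Mb. Another 7859 regions had a peak of shMBD3.26 alone and 4291 a peak of shMBD3.232 alone, with median widths of 800 and 1000 bp. The regions of a single hairpin were thus many but narrow, spanning 8.57 and 6.04 Mb.

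Shared regions were the largest class. Of the 21608 regions, 11083 were shared, which is 51.3% (50.6 to 52.0), 8333 were A2780cis-only, which is 38.6% (37.9 to 39.2), and 2192 were hairpins-only, which is 10.1% (9.75 to 10.6). Shared regions spanned 83.8 Mb or 70.4% of the length of all regions. A2780cis-only regions spanned 21.0 Mb (17.7%) and hairpins-only regions 14.2 Mb (11.9%). The number of A2780cis-only regions was thus 3.80 times that of hairpins-only regions, whereas the lengths differed far less.

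The order of the 2 unshared classes by number depended on which hairpin peaks made up the MBD3 side. When a peak of either hairpin was enough, 5744 regions were A2780cis-only and 10800 were hairpins-only. With shMBD3.26 alone as the MBD3 side the numbers were 6800 and 8450, and with shMBD3.232 alone 7487 and 5412. The number of shared regions moved less, from 11083 to 13629, 12989 and 12101.

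From the side of each list, 11912 of the 20245 A2780cis peaks had a partner in the hairpin regions (58.8%, 58.2 to 59.5). Of the 13960 hairpin regions, 11768 had a partner among the A2780cis peaks (84.3%, 83.7 to 84.9). By length, 54.6 Mb were covered on both sides, which was 59.7% of what A2780cis peaks covered and 66.4% of what the hairpin regions covered. The rule of 1 bp decided few regions. Among shared regions, 41 had an overlap of at most 200 bp, and their median width was 2200 bp. Just outside the rule, 263 A2780cis-only and 71 hairpins-only regions lay within 1 kb of the other side, with median widths of 1800 and 2600 bp.

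Width separated the classes when both hairpins were demanded. Shared regions had a median width of 5200 bp (quartiles 3400 and 8500), hairpins-only regions 3400 bp (1800 and 7000) and A2780cis-only regions 1400 bp (800 and 2800). Of the A2780cis-only regions, 8.47% were a single step of 200 bp, the grid of the lists, against 0.456% of hairpins-only and 0.0180% of shared regions. A hairpins-only region is the union of at least 2 peaks and an A2780cis-only region is usually 1 peak, which bears on these medians. When the MBD3 side was restricted to the bases covered by both hairpins, the median of hairpins-only regions was 1400 bp as well. The demand for both hairpins also leaves out the narrow regions of a single hairpin. Without it, hairpins-only and A2780cis-only medians were 1000 and 1400 bp with shMBD3.26 alone. They were 1400 bp each with shMBD3.232 alone, and 1000 and 1200 bp with a peak of either hairpin.

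Narrow A2780cis peaks were the most often without a partner. Among peaks of up to 1 kb, 83.5% (82.3 to 84.6) had none. This share was 59.4% from 1 to 2 kb, 28.9% from 2 to 5 kb, 13.7% from 5 to 10 kb and 13.4% (11.6 to 15.4) from 10 to 20 kb. It was higher again, at 20.4% (16.9 to 24.4), for the 446 peaks over 20 kb. Among hairpin regions the curve fell and then rose. Without an A2780cis partner were 28.9% (25.5 to 32.5) of the hairpin regions of up to 1 kb, 24.5% from 1 to 2 kb, 12.9% from 2 to 5 kb and 10.4% (9.45 to 11.4) from 5 to 10 kb. From 10 to 20 kb it was 19.4% (17.3 to 21.7), and over 20 kb 31.2% (27 to 35.6), which was 139 of 446 regions. The hairpin side was lower than the A2780cis side in every bin up to 10 kb and higher in both bins above it, with no overlap of the intervals in any of the bins. The 2 sides were made unlike. Regions with a peak of a single hairpin, of median widths 800 and 1000 bp, were left out of the hairpin side. No such demand was made of A2780cis peaks, and hairpin widths are those of merged peaks. How much of the difference between the curves comes from this was not tested.

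**Figure D1:**
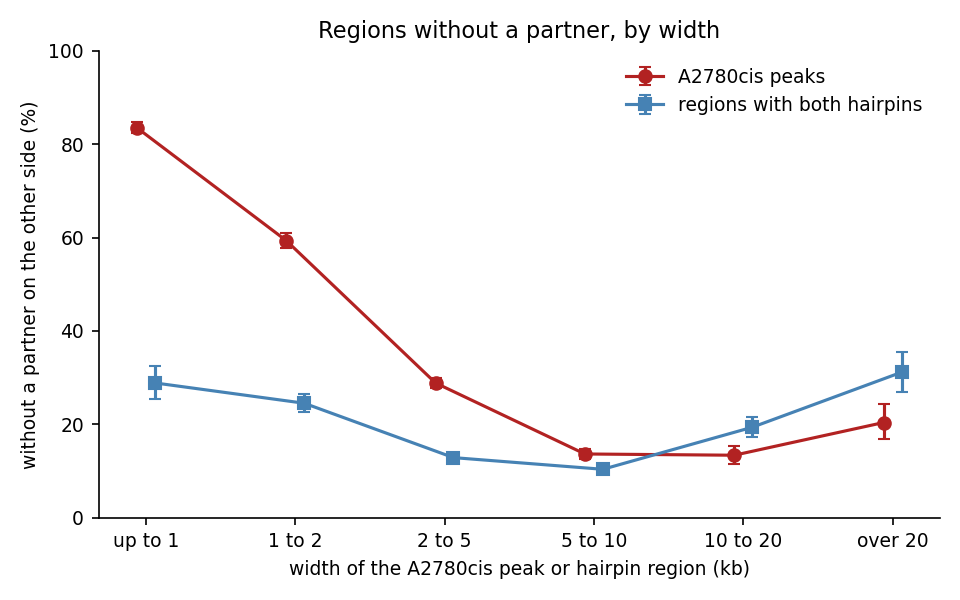
Share of A2780cis H3K27ac peaks (red circles) and of regions with both MBD3 hairpins (blue squares) that had no partner on the other side, in % with 95% Wilson intervals, against their own width in kb. The A2780cis curve falls from 83.5% to 13.4% and ends at 20.4%, and the hairpin curve falls to 10.4% and ends at 31.2%, above the A2780cis curve. Hairpin regions are merged peaks that had to be held by both hairpins, whereas A2780cis peaks met no such demand.

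The wide unshared regions therefore showed the opposite order from the classes as a whole. Over 10 kb there were 254 A2780cis-only and 380 hairpins-only regions, that is 3.05% (2.70 to 3.44) of the first class and 17.3% (15.8 to 19) of the second. From 10 to 20 kb the numbers were 163 and 241, and over 20 kb they were 91 and 139. Hairpins-only regions over 10 kb outnumbered A2780cis-only ones under all 11 alternative ways of making the regions, but with the bases covered by both hairpins the numbers were nearly even, at 263 and 254.

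Most regions that both hairpins held and A2780cis lacked were also marked in A2780 cells without a hairpin. An A2780 H3K27ac peak was present at 81.5% (79.8 to 83.1) of hairpins-only regions, at 98.0% (97.7 to 98.3) of shared regions and at 36.5% (35.4 to 37.5) of A2780cis-only regions. Over 10 kb these shares were 96.3% (93.9 to 97.8), 99.8% (99.4 to 99.9) and 29.9% (24.6 to 35.8). The share at hairpins-only regions was lower with 1 hairpin as the MBD3 side, at 44.4% for shMBD3.26 and 54.9% for shMBD3.232, and 40.2% with a peak of either, but above that at A2780cis-only regions each time (30.3%, 33.2% and 23.6%). The hairpin libraries and the A2780 list come from A2780 cells, and the A2780cis list from their resistant derivative. The cause of the difference between the classes was not tested.

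Regions with a peak under both hairpins and none in untransduced A2780 were few. There were 405 such hairpins-only regions with a median width of 2200 bp, and 14 of them were over 10 kb. A further 219 shared regions had no A2780 peak, with a median width of 2400 bp, and 5 of these were over 10 kb. A2780cis thus had a peak at 219 of these 624 regions (35.1%, 31.5 to 38.9). Of the 12651 regions with a peak of both hairpins and an A2780 peak, it had one at 10864 (85.9%, 85.3 to 86.5). The A2780 peak was sought over the whole merged region, which in shared regions includes A2780cis stretches beyond the hairpin part. Regions with an A2780 peak were also wider, with medians of 5400 bp for shared and 3800 bp for hairpins-only regions. How much of the difference comes from this was not tested.

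A2780cis-only regions were mostly absent from either hairpin list as well. Of the 8333, 5744 had no peak of either hairpin (68.9%, 67.9 to 69.9), 1649 had a peak of shMBD3.26 alone (19.8%), 882 a peak of shMBD3.232 alone (10.6%), and 58 a peak of each that did not touch. Neither hairpin nor A2780 had a peak at 4388 (52.7%, 51.6 to 53.7), and over 10 kb at 158 of 254 (62.2%, 56.1 to 67.9). Where A2780 did have a peak, 1356 A2780cis-only regions had it in A2780 and under neither hairpin, with a median width of 1600 bp. At those with 1 hairpin, an A2780 peak was present in 1064 of 1649 for shMBD3.26 and in 575 of 882 for shMBD3.232.

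H3K9ac, a second acetylation mark of active promoters and enhancers, was not used to make the classes. Its lists are from A2780 and A2780cis cells, and none was made with a hairpin. The A2780 list held 22438 autosomal peaks over 54.5 Mb and the A2780cis list 15058 over 53.6 Mb. Their median peak widths were 1600 and 2600 bp. At A2780cis-only regions the A2780cis H3K9ac list had a peak in 22.5% (21.6 to 23.4) and the A2780 list in 14.7% (14 to 15.5). At hairpins-only regions the order was turned, with A2780cis H3K9ac at 5.79% (4.89 to 6.85) and A2780 H3K9ac at 46.4% (44.3 to 48.4). At shared regions the lists were nearly even, at 78.6% for A2780cis and 79.0% for A2780.

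The difference was larger in wide regions. Over 10 kb, A2780cis H3K9ac was present at 226 of 254 A2780cis-only regions (89.0%, 84.5 to 92.3) and covered 60.3% of their length, whereas A2780 H3K9ac was present at 55 (21.7%, 17.0 to 27.1) and covered 2.60%. At hairpins-only regions over 10 kb, A2780cis H3K9ac was present at 9 of 380 (2.37%, 1.25 to 4.44) and covered 0.175% of the length, whereas A2780 H3K9ac was present at 287 (75.5%, 71.0 to 79.6) and covered 36.0%. In wide regions the 2 marks thus went the same way in the lists of each line. In regions of up to 2 kb, A2780cis H3K9ac was present at 13.3% (12.4 to 14.2) of A2780cis-only, 7.41% (5.63 to 9.68) of hairpins-only and 41.3% of shared regions, and A2780 H3K9ac at 11.2% (10.4 to 12.0), 30.9% (27.4 to 34.5) and 36.5%. Of the 5294 A2780cis-only regions without an A2780 H3K27ac peak, 963 had A2780cis H3K9ac (18.2%), and of those over 2 kb 594 of 1565 did (38.0%).

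The CAOV4 pair separated shared from unshared regions and did little to separate the unshared classes. CAOV4 H3K27ac was present at 69.6% (68.7 to 70.5) of shared, 17.9% (17.1 to 18.8) of A2780cis-only and 22.0% (20.3 to 23.8) of hairpins-only regions. For the resistant CAOV4cis these were 69.3%, 19.6% (18.8 to 20.5) and 22.1% (20.4 to 23.9). Over 10 kb, the shares in CAOV4 and CAOV4cis were 13% (9.40 to 17.7) and 16.5% (12.5 to 21.6) at A2780cis-only regions and 11.8% (8.97 to 15.5) and 12.4% (9.43 to 16.1) at hairpins-only regions, with overlapping intervals. Shared regions over 10 kb had 79.4% and 78.5%. Wide regions held by 1 side of the A2780 comparison were thus seldom marked in the CAOV4 lines, sensitive or resistant.

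**Figure D2:**
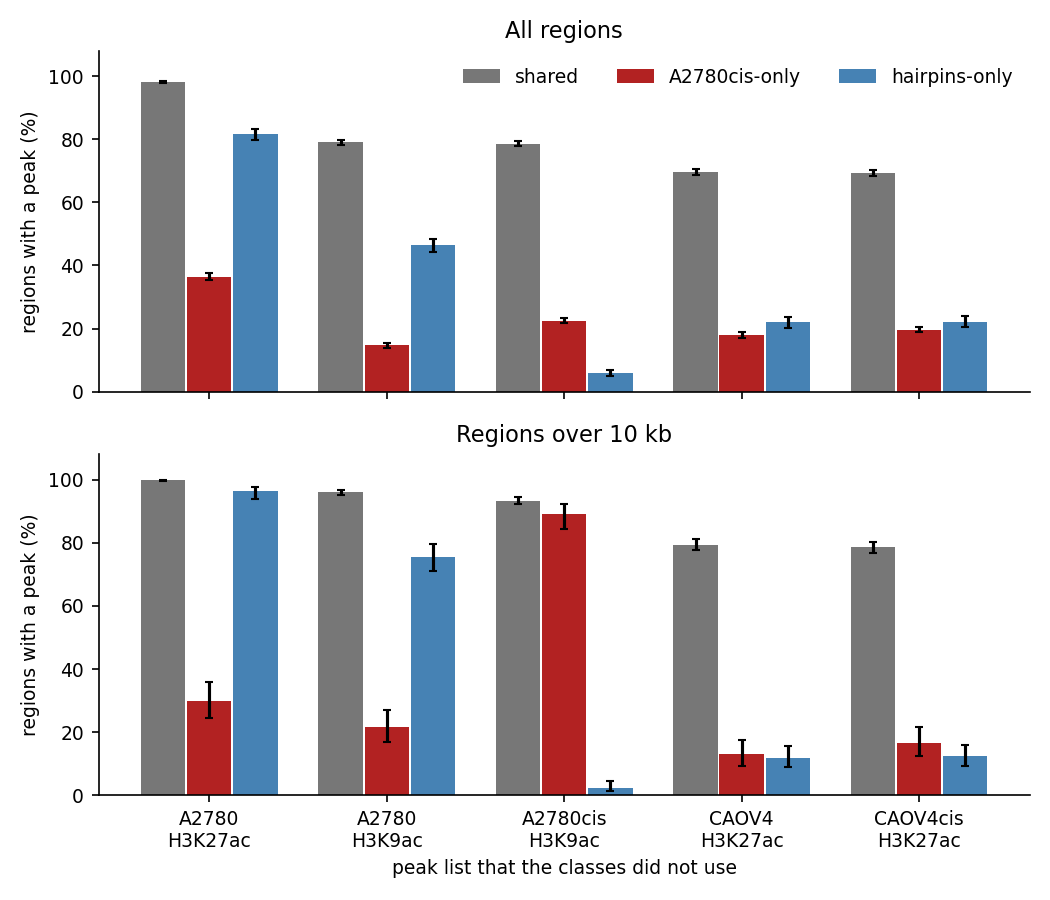
Share of shared (grey), A2780cis-only (red) and hairpins-only (blue) regions with a peak in 5 lists that the classes did not use, in % with 95% Wilson intervals, for all regions (top) and regions over 10 kb (bottom). Over 10 kb, A2780cis H3K9ac is at 89.0% of A2780cis-only and 2.37% of hairpins-only regions, and A2780 H3K9ac at 21.7% and 75.5%.

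Distances to the other side depended on whether a single hairpin was enough. The median distance from an A2780cis-only region to the nearest region of both hairpins was 19.6 kb (18.8 to 20.8), and 30.7% lay over 50 kb away. To a peak of either hairpin the median was 4.2 kb, with 36.0% within 1 kb, regions that overlap a peak of 1 hairpin included, and 52.9% (51.8 to 53.9) within 5 kb. From a hairpins-only region to the nearest A2780cis peak it was 24.4 kb (22.0 to 26.4), and 36.7% (34.7 to 38.7) lay over 50 kb away. Within 5 kb of a region of both hairpins were 21.0% of A2780cis-only regions, and within 5 kb of an A2780cis peak 20.5% of hairpins-only regions.

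Within shared regions the covered lengths were balanced. The median ratio of A2780cis to hairpin length was 1.00 (quartiles 0.784 and 1.33), where the hairpin length is that of the merged regions. A2780cis covered at least 2 times as much in 954 regions (8.61%) and at most 0.5 times as much in 904 (8.16%). Against each hairpin alone, in shared regions made anew, the median ratio was 1.25 for shMBD3.26 (12989 regions) and 1.18 for shMBD3.232 (12101 regions). A union of both lists is longer than either, and the sets of regions differ as well. In the 2044 shared regions over 10 kb the median was 1.07 (1.06 to 1.09). A single A2780cis peak faced a single hairpin region in 9951 shared regions (89.8%), while 553 had several A2780cis peaks in 1 hairpin region and 442 the reverse.

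The widest regions show each class by its coverage. The widest shared region, chr7:130555001-130709000, was a single A2780cis peak of 154 kb with 124.8 kb covered in shMBD3.26, 141.2 kb in shMBD3.232 and 139.4 kb in A2780. The next, chr2:172837801-172979600, had 138.6 kb in A2780cis and 133.2 kb under each hairpin. At chr1:172285601-172403800, A2780cis covered 118.2 kb against 68.8 and 60.4 kb under the hairpins and 81.8 kb in A2780. At chr10:54353801-54469800 A2780cis covered 116 kb against 90.0 and 97.4 kb. The other of the 5 widest, chr9:116245201-116366800, met the rule with little A2780cis coverage. A2780cis covered 14 kb of it, against 113.6 kb for shMBD3.26, 118.8 kb for shMBD3.232 and 109.4 kb for A2780, and A2780cis H3K9ac covered 2.8 kb against 70.8 kb in A2780.

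Among A2780cis-only regions, the widest was chr11:41396201-41489400, 93.2 kb with no H3K27ac peak in A2780 or under either hairpin. It lay 1844 kb from the nearest hairpin region, and A2780cis H3K9ac covered 85.8 kb of it while A2780 H3K9ac covered none. chr3:117296001-117370000 (74 kb) and chr1:70410401-70482400 (72 kb) likewise had no peak in A2780, under either hairpin or in the CAOV4 lines, with 55.0 and 54.0 kb of A2780cis H3K9ac. chr7:25276601-25350600 (74 kb) had 0.6 kb of A2780 H3K27ac and none under a hairpin. chr12:47570001-47644800 was unlike these. A2780 covered 47.0 kb of its 74.8 kb and shMBD3.26 10.4 kb, while shMBD3.232 covered none, and CAOV4 and CAOV4cis had 20 and 28.0 kb.

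The 5 widest hairpins-only regions were all covered in A2780 as well. chr12:90308201-90427800 spanned 119.6 kb, with 116.8 kb in shMBD3.26, 119.6 kb in shMBD3.232 and 104.0 kb in A2780. chr2:50290601-50406400 had 108.4, 114.6 and 101.2 kb in the same order, and chr13:91728401-91824000 had 94.4, 93.6 and 94.6 kb. chr6:133176801-133262600 had 83.2, 84.2 and 83.4 kb and lay 36.0 kb from the nearest A2780cis peak, and chr13:36033601-36116200 had 80.8 kb under each hairpin and 74.4 kb in A2780. None of the 5 had A2780cis H3K9ac, and A2780 H3K9ac covered between 20 and 83.6 kb. CAOV4 and CAOV4cis covered at most 1.2 kb in any of them.

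The 100 widest regions of each unshared class followed this. A2780 had a peak at 28 of the 100 widest A2780cis-only regions (19 to 93.2 kb) and at all 100 of the widest hairpins-only regions (25.2 to 119.6 kb), and covered at least 50% of the length of 7 and of 94. A2780cis H3K9ac was present at 97 of the first and 1 of the second. A2780 H3K9ac was present at 21 and 90. Of the 100 widest A2780cis-only regions, 19 had a peak of shMBD3.26 and 8 a peak of shMBD3.232.

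The classes varied by chromosome. A2780cis-only regions made up 38.6% of all regions, and between 20.4% on chromosome 13 and 45.3% on chromosome 8. Hairpins-only regions made up 10.1%, and between 5.66% on chromosome 9 and 24.5% on chromosome 13. With both hairpins demanded there were more A2780cis-only than hairpins-only regions on 18 of 19 chromosomes. With shMBD3.232 alone this held on 17, with shMBD3.26 alone on 3, and with a peak of either hairpin on none. Again with both hairpins demanded, A2780cis peaks covered more than the hairpin regions on 16. The A2780cis-only share had an interval wholly above that of all autosomes on 5 chromosomes and wholly below on 2. For the hairpins-only share these were 4 and 5.

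Chromosome 13 had the largest departure in both classes. It held 80 A2780cis-only and 96 hairpins-only regions among 392, that is 20.4% (16.7 to 24.7) and 24.5% (20.5 to 29.0). A2780cis covered 1.23 Mb there and the hairpin regions 2.05 Mb, a ratio of 0.600, while the ratio over all autosomes was 1.11. Shared regions on it were also shorter in A2780cis, with a median ratio of covered lengths of 0.727, the lowest of any chromosome. H3K9ac behaved alike, with 0.402 Mb in A2780cis against 1.36 Mb in A2780, a ratio of 0.296. Relative to untransduced A2780, the A2780cis H3K27ac ratio on chromosome 13 was 0.537. A2780cis had 306 H3K27ac peaks there against 560 for shMBD3.26, 408 for shMBD3.232 and 657 for A2780, whereas CAOV4 and CAOV4cis had 435 and 433. Input libraries were not analysed here. Chromosome 13 had the highest hairpins-only and the lowest A2780cis-only share under each of the 10 ways of making the regions for which chromosomes were counted, although the shares themselves moved, to 10.2% A2780cis-only and 51.7% hairpins-only with shMBD3.26 alone and to 16.1% and 37.7% with shMBD3.232 alone.

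Other chromosomes departed less. Chromosome 9 had 322 A2780cis-only and 41 hairpins-only regions, 7.85 to 1, and 44.5% (40.9 to 48.1) and 5.66% (4.20 to 7.59) of its regions. Chromosome 8 had an A2780cis-only share of 45.3% (42.0 to 48.6), and its hairpins-only share of 11.5% (9.55 to 13.8) had an interval that included the share over all autosomes. Chromosome 18 had the lowest shared fraction, 41.2% (36.6 to 45.9), with high shares of both unshared classes, 43.5% and 15.3%. Chromosome 4 had 14.9% (12.7 to 17.4) hairpins-only regions and a covered ratio of 0.929, and chromosome 3 the highest covered ratio, 1.31. Chromosome 19 stood apart in another way. It had the highest shared fraction, 63.1% (60.9 to 65.4), and none of its 501 A2780cis-only or 152 hairpins-only regions was over 10 kb.

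Wide unshared regions had their own distribution. A2780cis-only regions over 10 kb were 3.05% of their class and most numerous on chromosome 3, with 37 of 483. Chromosomes 6 and 7 had 27 each, of 395 and 513. Hairpins-only regions over 10 kb were 17.3% of their class and most numerous on chromosome 2, with 46 of 159. Chromosome 4 had 38 of 130. Chromosome 1, which had the most hairpins-only regions of any width, had 35 of 249. On chromosome 2 hairpins-only regions of all widths spanned 1.51 Mb. This was more than the 1.31 Mb of its A2780cis-only regions, although the numbers were 159 and 543.

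**Figure D3:**
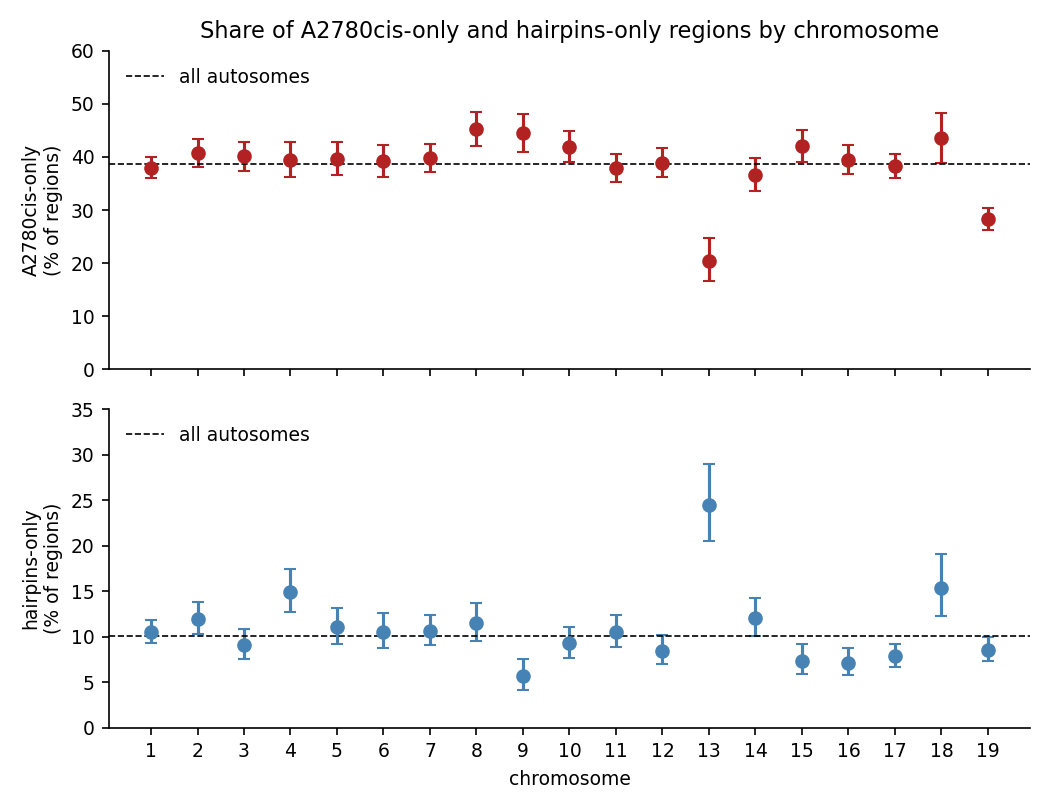
Share of regions that were A2780cis-only (top) and hairpins-only (bottom) on each of the 19 autosomes with peaks, in % with 95% Wilson intervals. The dashed line is the share over all autosomes, 38.6% and 10.1%, and chromosome 13 lies below it at 20.4% in the top panel and above it at 24.5% in the bottom panel.

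The unshared classes were unevenly placed along chromosomes. Of the 472 windows of 5 Mb with regions, 356 held at least 20. Across these the median shares were 38.8% A2780cis-only and 7.14% hairpins-only. A2780cis-only regions were the majority in 64 windows and hairpins-only regions in 10. The highest A2780cis-only share was on chromosome 18 from 65 to 70 Mb, with 30 of 33 regions (90.9%, 76.4 to 96.9), and the next were chromosome 6 from 45 to 50 Mb, with 31 of 35, and chromosome 1 from 70 to 75 Mb, with 46 of 52. None of these 3 had a hairpins-only region, and A2780cis covered 262.6, 249.2 and 319.4 kb against 16.8, 10.6 and 34.8 kb for the hairpins and 29.0, 14.4 and 42.6 kb for A2780.

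At the other end, 2 of the windows with at least 20 regions had no A2780cis-only region. Chromosome 1 from 105 to 110 Mb had 16 hairpins-only and 14 shared regions, with 34.8 kb in A2780cis, 244.4 kb in the hairpin regions and 165.4 kb in A2780. Chromosome 19 from 20 to 25 Mb had 9 hairpins-only and 22 shared regions, with 60.2, 111.2 and 87.4 kb. Among windows with at least 20 regions, those with the highest hairpins-only share were chosen after their values were seen. They were chromosome 4 from 90 to 95 Mb (25 of 28), chromosome 13 from 35 to 40 Mb (28 of 37) and chromosome 1 from 95 to 100 Mb (20 of 27). In the first of these A2780cis covered 7.4 kb, the hairpin regions 298.8 kb and A2780 222.4 kb. Chromosome 1 thus held windows near both ends of the range.

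**Figure D4:**
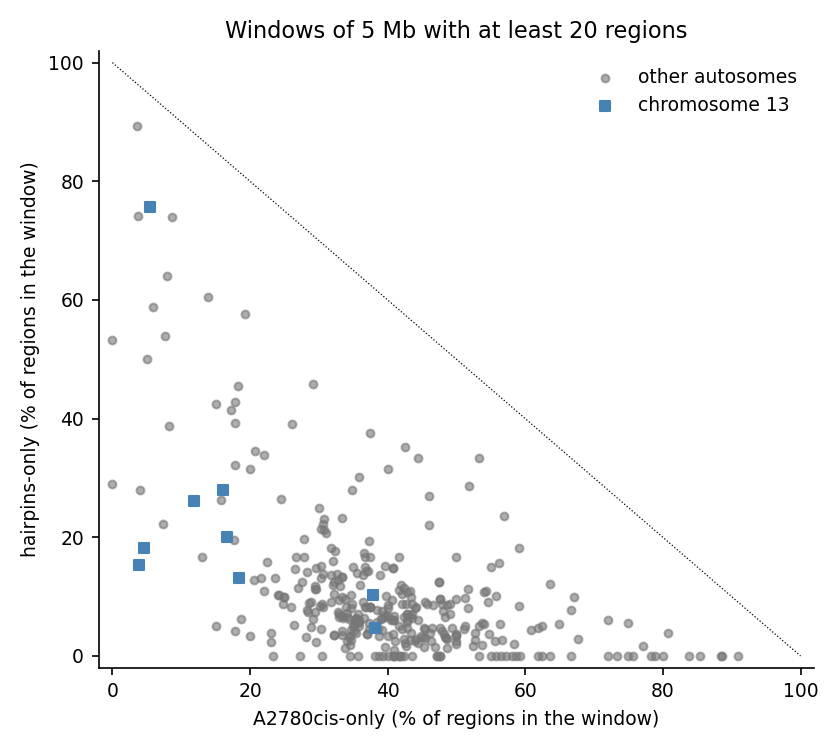
Each point is 1 of the 356 windows of 5 Mb with at least 20 regions, placed by the share of its regions that were A2780cis-only (x axis, %) and hairpins-only (y axis, %). Blue squares are windows of chromosome 13, and the dotted line is the limit where no region is shared. Most windows lie near the medians of 38.8% and 7.14%, and arms reach to 90.9% A2780cis-only and to 89.3% hairpins-only.

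Consecutive regions of 1 class formed runs. The longest run of A2780cis-only regions was 35 regions at chr6:139348001-142074000, with 260 kb covered in A2780cis and 5 kb in A2780. shMBD3.26 had a peak at 3 of its regions, shMBD3.232 at none, A2780cis H3K9ac at 16, CAOV4 at 5 and CAOV4cis at 6. The next were 33 regions each, at chr3:115503001-118753800 and chr1:69031001-70662400, with 286.6 and 240.8 kb covered in A2780cis. Neither hairpin had a peak in these, A2780 had a peak at 0 and 1 of their regions, and A2780cis H3K9ac at 8 and 13. The run on chromosome 3 held the 74-kb region described above, and that on chromosome 1 the 72-kb region.

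The longest hairpins-only run had 23 regions at chr13:35515601-36537800, spanning 1022 kb with 320 kb of regions. A2780 had a peak at 21 of them, A2780 H3K9ac at 11 and A2780cis H3K9ac at none. The next were 22 regions at chr4:90174801-91051400, with A2780 at 18, and 21 regions at chr2:49993601-50723800, with A2780 at 20. The runs on chromosomes 13 and 2 each held a region of the 5 widest of the class. That on chromosome 2 was the densest of the 3, with 507.2 kb of regions in 730.2 kb, a median width of 12200 bp and its widest region of 115.8 kb. Runs of 10 or more numbered 47 of 4523 runs for A2780cis-only, 28 of 1338 for hairpins-only and 30 of 5060 for shared regions. The median run was 1, 1 and 2 regions. The number expected from the share of each class was not computed.

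*JAK1*, *FGF10* and *MBD3* were looked up because the study's text ties the first 2 to acetylation in A2780cis and the hairpins target the other. Their windows, of 150, 90 and 30 kb, were set from general knowledge of the positions of these genes in GRCh37 and rounded outward, so peaks are given by position and not by exon or promoter. *JAK1* encodes a tyrosine kinase that passes signals from cytokine receptors to STAT proteins. In its window A2780cis had 9 H3K27ac peaks covering 40.0 kb, among them chr1:65410201-65435800 of 25.6 kb. shMBD3.26 had 1 peak of 0.8 kb, at chr1:65431601-65432400, A2780 had 1 of 1.2 kb, and shMBD3.232 had none. All 9 regions were A2780cis-only. A2780cis H3K9ac covered 24.4 kb of the window and A2780 H3K9ac none, and CAOV4 and CAOV4cis H3K27ac covered 6.0 and 14 kb.

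*FGF10* encodes a secreted fibroblast growth factor. In its window A2780cis had 5 peaks covering 60.8 kb or 67.6% of the window, and the widest, chr5:44370801-44400800, was 30.0 kb. shMBD3.26 had 1 peak of 0.2 kb, a single step of the grid, and shMBD3.232, A2780, CAOV4 and CAOV4cis had none. All 5 regions were A2780cis-only. A2780cis H3K9ac covered 6.8 kb, less than at *JAK1*. At both genes the depleted A2780 cells were thus listed like untransduced A2780 and unlike A2780cis.

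The *MBD3* window was marked on both sides. A2780cis covered 15.2 kb of it, shMBD3.26 8.2 kb, shMBD3.232 15.6 kb and A2780 13.2 kb. It held 2 regions, both shared, at chr19:1572601-1579000 and chr19:1586401-1611400. shMBD3.26 covered the least, and the 2 hairpins differed from each other by more than A2780cis and A2780 did. Acetylation at the gene does not measure the knockdown, which acts on the transcript, and no RNA was measured in these libraries.

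**Figure D5:**
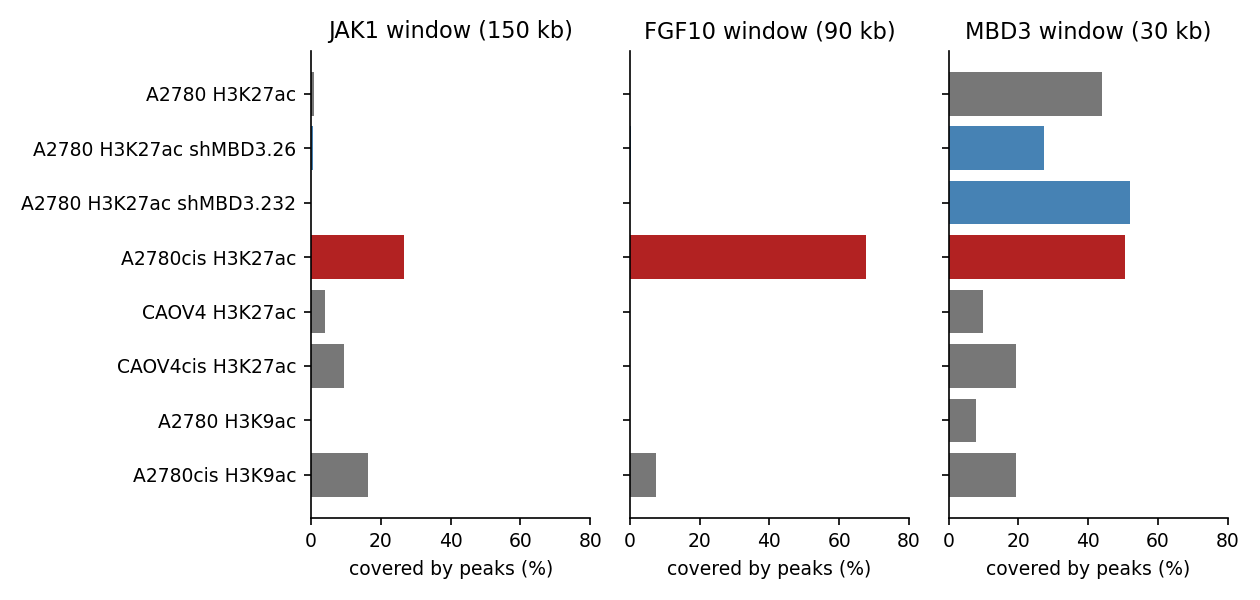
Share of the *JAK1* (150 kb), *FGF10* (90 kb) and *MBD3* (30 kb) windows covered by peaks of each of the 8 lists, in %. A2780cis H3K27ac (red) covers 26.7%, 67.6% and 50.7%, and the hairpin libraries (blue) cover at most 0.533% at *JAK1* and 0.222% at *FGF10* but 27.3% and 52.0% at *MBD3*.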

How the data were processed

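ChIP libraries were sequenced as 2 × 150 bp paired-end reads, which the authors mapped by Bowtie2 in Galaxy. They quantile normalized the data in R and called peaks with MACS2. Versions are not given in the sources used here. The deposited lists hold 1 row per peak, called per sample, with start and end on a grid of 200 bp in all but 1 row, a mitochondrial peak, and a score that is 0 in all 179695 rows and was not used.

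Autosomal peaks were merged by an overlap of at least 1 bp and classed in Python 3.11.15 (pandas 2.3.3, numpy 2.4.6, SciPy 1.17.1), with plots by matplotlib 3.10.9. Shares carry 95% Wilson intervals and medians order-statistic intervals, which cover counting error only. With 1 library per condition no test was made. The classing code was checked on lists copied from the A2780cis peaks, with and without small shifts. Such lists lack the differences in width between the real lists, so this was a check of the code alone. Named regions are the 5 widest of each class, the 3 longest runs of each unshared class, the 5-Mb windows with the highest and lowest A2780cis-only shares among those with at least 20 regions, and 3 loci. The runs were to be the 3 longest over both unshared classes, which were all A2780cis-only, so the hairpins-only ones were added. The members and lists were chosen with earlier results of these data known. The planned gene lists and cell type markers need a GRCh37 annotation and were not applied.

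The alternatives were a gap of up to 5 kb, an overlap covering 50% of whichever peak was shorter, a peak of either hairpin, each hairpin alone, the bases covered by both, peaks over 2 kb, the same number of widest peaks, the wider 50% of each list and all chromosomes. Leaving out chromosome 13 was added after seeing the data.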

Additional observations from a re-analysis of the deposited data

How the results depend on the processing

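No paired analysis was possible because each condition had 1 library and no test was made. The number of A2780cis-only regions exceeded that of hairpins-only regions under 9 of 11 alternatives, all but a peak of either hairpin and shMBD3.26 alone. Hairpins-only regions had the wider median under 7 of 11. A2780 H3K27ac and H3K9ac were more frequent at hairpins-only, and A2780cis H3K9ac at A2780cis-only regions, under all 11. The cause of the shifts below was not tested, except that fewer peaks enter when narrow peaks are left out and that a union or intersection of the hairpin lists changes width by construction.

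Values are given as counts, as median widths, as shares of each unshared class with an A2780 peak, and as shares of the regions on chromosome 13. With a peak of either hairpin, 10800 regions were hairpins-only. Median widths were 4600 bp for shared and 1000 bp for hairpins-only regions, A2780 peaks were at 23.6% of A2780cis-only and 40.2% of hairpins-only regions, the chromosome 13 shares were 8.62% A2780cis-only and 55.2% hairpins-only, and the median distances were 12.4 kb for A2780cis-only and 14.2 kb for hairpins-only regions. With shMBD3.26 alone, 8450 were hairpins-only, the widths were 4400 and 1000 bp, A2780 peaks at 30.3% and 44.4%, chromosome 13 at 10.2% and 51.7%, and the ratio of lengths 1.25. With shMBD3.232 alone these were 5412, 4800 and 1400 bp, 33.2% and 54.9%, 16.1% and 37.7%, and 1.18. With the bases covered by both hairpins, widths were 4600 and 1400 bp, A2780 peaks at 37.7% and 77.0%, and chromosome 13 had 31.0% hairpins-only regions.

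With an overlap of 50%, A2780 peaks were at 37.6% of A2780cis-only regions. With a gap of 5 kb, 5065 regions were A2780cis-only, shared and hairpins-only widths were 6800 and 4600 bp, A2780 peaks at 34.4% and 79.8%, and chromosome 13 had 16.6% A2780cis-only regions. With peaks over 2 kb there were 7219 shared, 4892 A2780cis-only and 1318 hairpins-only regions, with widths of 6800, 3400 and 6300 bp and A2780 peaks at 66.3% and 93.9%. With the wider 50% there were 6048 shared and 3725 A2780cis-only regions, with widths of 7600, 4200 and 6000 bp for shared, A2780cis-only and hairpins-only regions, A2780 peaks at 70.5% and 96.0%, and chromosome 13 at 16.0% and 39.6%. With the same number of widest peaks, A2780 peaks were at 41.2% and 83.9%. All chromosomes, or leaving out chromosome 13, moved none of these beyond its counting interval or, for a count, by over 1.5 times. Of 467 other values, 285 moved beyond their counting intervals, which are narrow at these numbers of regions. A peak's depth is unknown, so the absence of a peak cannot be told apart from signal under the caller's limit.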
